A study of Mus musculus with 5 samples.

Results

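The subunits of the corepressor complexes of class I histone deacetylases, most of which carry histone deacetylase 1 (HDAC1), were examined in the hippocampus of mice with a deletion of *Hdac1*. The 40 genes were chosen by name, as the scaffold, DNA-binding and histone-binding subunits of the Sin3, NuRD, CoREST, NCoR and MIER complexes, and all 40 were found among the 23361 gene symbols listed for each library. They comprised 13 Sin3 genes, 10 NuRD genes, 8 CoREST genes, 4 NCoR genes, 3 MIER genes and the 2 histone chaperones *Rbbp4* and *Rbbp7*, which Sin3 and NuRD share. Hippocampal RNA of mice aged 3 months was sequenced from 2 control samples, of genotype Hdac1f/f, and from 3 *Hdac1* conditional knockout (cKO) samples, of genotype Hdac1f/f with the Nestin-Cre transgene. Both groups therefore carried the floxed allele, and the controls lacked Cre, so an effect of the transgene itself and an effect of the deletion cannot be told apart. The study used male mice for this age group and describes the deletion as one in neurons and astrocytes, with the protein still detected in microglia. Expression was given as FPKM, sequenced fragments per length of transcript, corrected for the depth of each library. The labels only number the samples, but the libraries of each group are as many as the mice that the study gives for this comparison, so each library was read as a separate mouse.

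The class I histone deacetylases HDAC1, HDAC2 and HDAC3 have little target specificity of their own and act inside multi-subunit complexes. HDAC1 and its close relative HDAC2 are the catalytic subunits of Sin3, NuRD, CoREST and MIER, and HDAC3 is the catalytic subunit of NCoR. The remaining subunits hold the enzyme, stimulate it, and bring it to chromatin through DNA-binding proteins, methylated DNA or histone tails, and in neurons CoREST and NuRD are known for silencing genes that belong to other lineages or developmental stages. The comparison asked whether the transcripts of these subunits differ once the *Hdac1* transcript is reduced.

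Promoters are shown for members with the largest differences, because the study followed guanine-rich promoter motifs. The study found them near genes lower in aged cKO mice, in a wider window around the start, so the age and the windows differ here. RefSeq promoter windows (assembly GRCm38.p6, 250 bases before to 50 bases after a transcript start) matched 34 of the 40 members by symbol, with 51 windows. The GC box core GGGCGG, searched on both strands so that it also reads CCGCCC, was present in a window of 29 of these 34 members (85.3%). It was present in a window of 38.2% of the 27025 genes in the table, and in 70.1% of the 9428 that were also tested for expression here. The median GC content was 65.7% over the member windows and 61.0% over the windows of tested genes. The motif was found in none of the windows of *Arid4b*, *Brms1l*, *Gps2*, *Kdm1a* and *Sap18*, which says only that these letters are missing there. The largest numbers of matches were 7 in a window of *Rcor3* and 6 in windows of *Rcor1* and *Ing1*. The 120 bases before the start are printed 5′ to 3′ for 4 of the 5 members with the largest differences between genotypes. The fifth, *Gps2*, is left out because its window reaches into the annotated gene. All 4 lie on the plus strand, the coordinates come from an exact match to NCBIM37 (mm9), and capitals mark the motif.
Mier3, chr13:112476266-112476385: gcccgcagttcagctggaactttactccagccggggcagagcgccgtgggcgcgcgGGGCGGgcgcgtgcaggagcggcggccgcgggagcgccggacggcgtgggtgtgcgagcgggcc
Mta1, chr12:114336369-114336488: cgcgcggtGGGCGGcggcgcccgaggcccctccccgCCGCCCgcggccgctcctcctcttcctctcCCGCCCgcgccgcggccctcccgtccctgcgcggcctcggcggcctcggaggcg
Sin3b, chr8:75247049-75247168: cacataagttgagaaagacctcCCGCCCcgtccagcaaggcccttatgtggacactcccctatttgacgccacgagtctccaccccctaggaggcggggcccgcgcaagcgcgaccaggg
Chd5, chr4:151712640-151712759: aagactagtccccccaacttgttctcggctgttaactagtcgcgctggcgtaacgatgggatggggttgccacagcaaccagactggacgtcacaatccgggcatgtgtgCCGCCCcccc
In these 120 bases the motif occurred 3 times upstream of *Mta1* and 1 time upstream of each of *Mier3*, *Sin3b* and *Chd5*. Of the 4 genes, 3 had a lower mean in the cKO and *Sin3b* a higher one. None of these differences passed the test described below, so the windows say nothing about the motif result of the study.

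The deleted gene was read first. *Hdac1* (chromosome 4, 129193348 to 129219957, minus strand, mm9) was at 8.95 and 13.1 FPKM in control tissue, against 1.95, 3.12 and 3.37 FPKM in cKO tissue. Every cKO library lay below both controls. The difference was -1.66 ± 0.21 (SE) on the log2(FPKM + 1) scale, with a limma p of 5.16e-05 that became 0.219 after adjustment over all tested genes, and 0.00389 when the library set was a block in the fit. *Hdac2* was at 30.6 and 38.6 FPKM in control tissue, against 28.6, 34.8 and 34.6 FPKM in cKO tissue, and *Hdac3* was at 30.4 and 39.0 against 34.0, 36.0 and 36.1 FPKM. The groups overlapped for both. The summed level of *Hdac1* and *Hdac2* was 39.6 and 51.7 FPKM in control tissue, against 30.6, 37.9 and 38.0 FPKM in cKO tissue, with no overlap. *Hdac1* supplied 22.6% and 25.3% of this sum in control tissue, against 6.37%, 8.23% and 8.87% in cKO tissue. FPKM is a value per length, so these levels can be set side by side. A copy of *Hdac1* on chromosome 17, annotated as *Gm10093*, matches 97.7% of its transcript at 98.8% identity, a further copy on chromosome 18 matches 92.3% at 95.2% identity, and how reads were shared with them is not stated. In bulk RNA alone, fewer cells of a type and less RNA per cell cannot be told apart. By staining, the study found HDAC1 absent from neurons and astrocytes, without a significant change in the number of these cells at this age.

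Against this change in the catalytic pair, no corepressor subunit passed the threshold. The study's rule for a differential gene is a fold change of at least 1.5 with a p under 0.05. Here it was applied to the unadjusted limma p and to the fold of FPKM + 1. It was met by 0 of the 40 members and by 84 of the 12740 tested genes (0.659%), those whose mean over all libraries reached 1 FPKM. The study does not name its test, so these counts do not repeat its own. Without the fold, an unadjusted p under 0.05 was reached by 0 members and by 4.36% of all tested genes. An adjusted p under 0.05 was reached by 0 members and by 1 gene of all those tested (0.00785%). The lowest unadjusted p of a member was 0.122, for *Chd5*, and the lowest adjusted p was 0.955. Of the 40 members, 19 had a higher and 21 a lower mean in the cKO, and after rescaling to a common total these were 10 and 30, where 62.6% of all tested genes were lower instead of 46.3%. The median difference was -0.01 for the members and 0.01 for all tested genes, and the median size of the difference was 0.07 for the members and 0.10 for all tested genes. Each genotype was spread over 2 sets of libraries, recognised by shared steps in low FPKM values, with control 1 and cKO 1 in the first set and control 2, cKO 2 and cKO 3 in the second, and differences within each set are given beside those of the whole for the members that differed most.

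The differences could be bounded as well as tested. The 95% interval of the difference lay inside ±0.58 on the log2(FPKM + 1) scale, a 1.5-fold change of FPKM + 1, for all 40 members, as it did for 82.3% of all tested genes. The lowest bound was -0.55 for *Mier3* and the highest was 0.51 for *Sin3b*. A 1.5-fold change in FPKM itself is smaller on this scale for low genes, and is a fall of -0.48 for *Mier3*, whose bound lay beyond it. Set against a 1.5-fold change of each gene's own control mean in FPKM, which was added after the data were seen, 39 of the 40 intervals lay inside, beside 67.5% of all tested genes. These intervals are for 1 gene at a time and are not adjusted for the number of genes. The count depends on the libraries and the scaling used. Inside ±0.58 lay 36 of 40 after rescaling to a common total (72.2% of all tested genes), 39 with a pseudocount of 0.1 FPKM (68.7%), and between 29 without control 2 (57.2%) and 39 without cKO 3 (73.0%) when 1 library was left out.

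**Figure D1:**
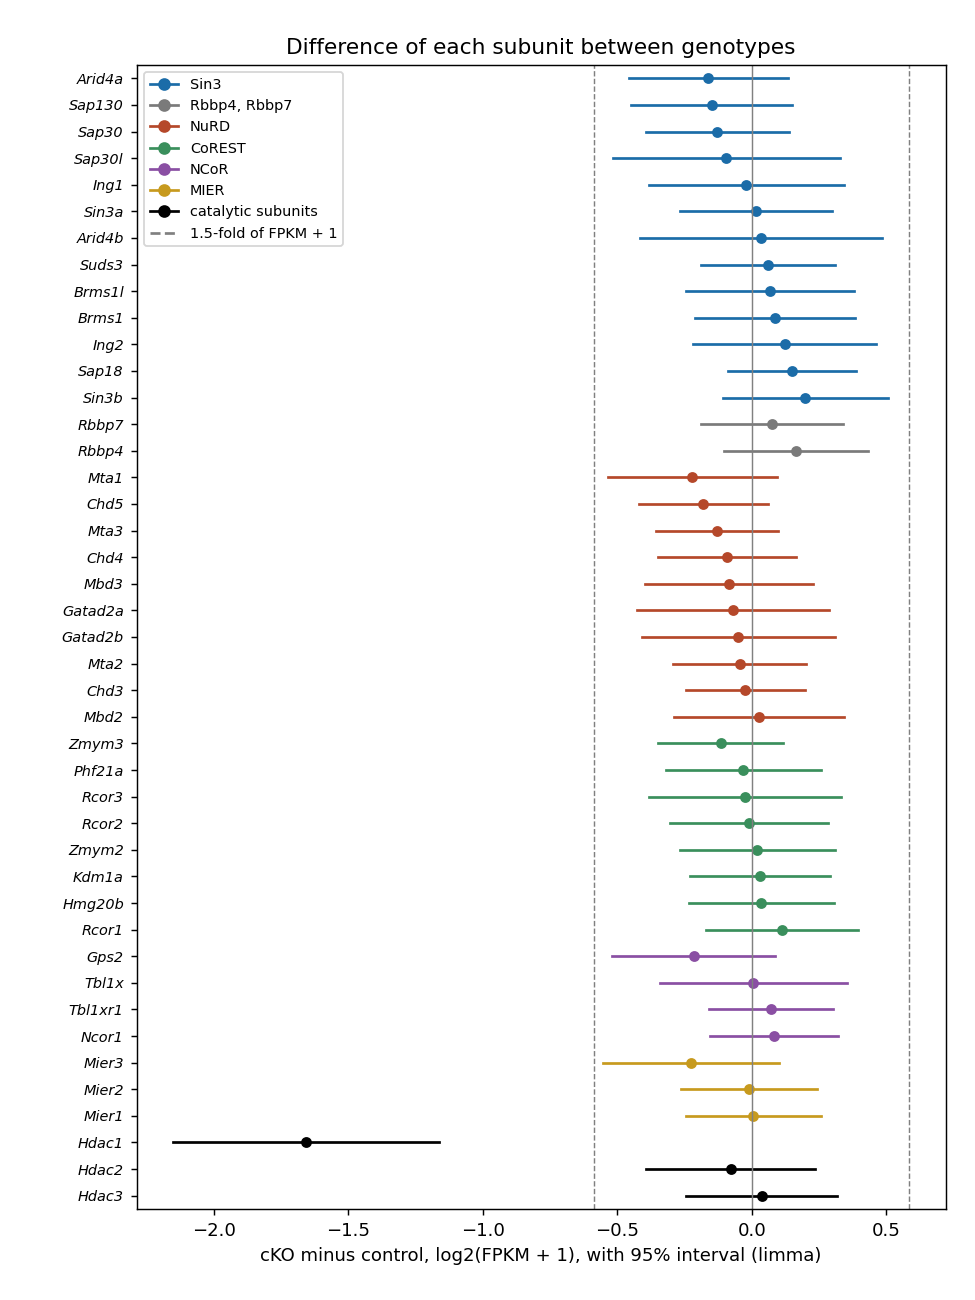
Difference between *Hdac1* cKO (n = 3) and control (n = 2) for each subunit, on the log2(FPKM + 1) scale, with its 95% interval from limma, grouped and coloured by complex. Dashed lines mark a 1.5-fold change of FPKM + 1. The intervals of all 40 subunits include 0 and lie between the dashed lines, and *Hdac1* lies at -1.66.

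The levels of the members spanned a wide range. *Chd3*, an ATPase of the NuRD complex that slides nucleosomes, was the highest, at 166 and 178 FPKM in control tissue, against 159, 176 and 171 FPKM in cKO tissue. *Rbbp7*, a chaperone that holds histone H4, followed with 71.1 and 83.5 against 75.4, 79.9 and 88.8 FPKM. Both genes had overlapping groups, with differences of -0.02 and 0.07. The lowest members were the CoREST scaffolds *Rcor2*, with a mean of 3.95 FPKM over the 5 libraries, and *Rcor1*, with 4.36 FPKM. The median of the members' mean levels was 13.5 FPKM, beside 10.9 FPKM for all tested genes. In the order of the means, *Chd3* stood clear of *Rbbp7*, *Rbbp7* of *Suds3*, and *Rbbp4* of *Mta3*, in that the 5 values of each lay above the 5 values of the next gene. All other neighbours in that order had overlapping ranges. The first 7 places were held by the same genes in the same order in controls and in cKO, namely *Chd3*, *Rbbp7*, *Suds3*, *Sin3b*, *Ncor1*, *Rbbp4* and *Mta3*. The fragments behind a value were estimated, from the steps in the FPKM values, at 51.4 to 73.9 per library for *Sap30* and at 6555 to 8513 for *Chd3*. The SEs of their differences were nonetheless close, at 0.12 and 0.10, and the largest SE of a member was 0.20, for *Arid4b*.

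**Figure D2:**
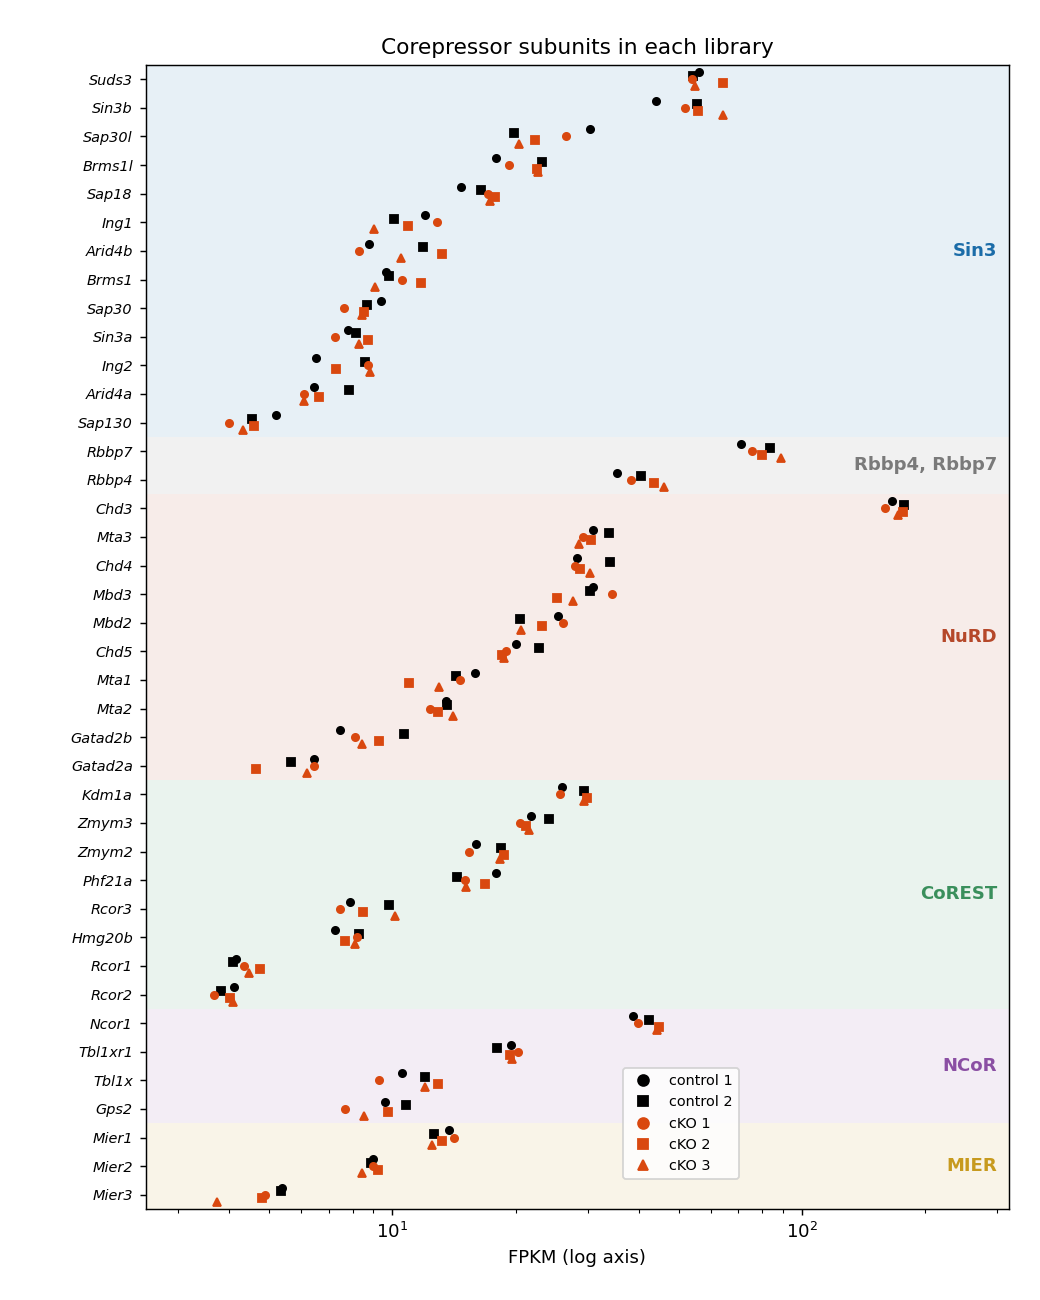
FPKM of the 40 subunits in each of the 5 libraries, on a log axis, ordered by mean level within each complex. Black symbols are the 2 control and orange symbols the 3 cKO libraries. Levels run from 3.68 FPKM for *Rcor2* to 178 FPKM for *Chd3*, and the spread between libraries is small beside the spread between genes.

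In the Sin3 complex, SIN3A and SIN3B are the scaffolds on which the deacetylase and the other subunits assemble. *Sin3b* (chromosome 8, 75247187 to 75282102) was at 44.2 and 55.5 FPKM in control tissue, against 51.7, 55.9 and 64.1 FPKM in cKO tissue. Its groups overlapped, since the second control lay above the first cKO library. The difference of 0.20 ± 0.13 (SE, adjusted p = 0.955 in limma) was the largest positive one among the members, with all libraries in the fit. It was 0.22 and 0.11 within the library sets, 0.039 without control 1 and 0.36 without control 2. *Sin3a*, the other scaffold, was at 7.80 and 8.15 FPKM against 7.24, 8.74 and 8.31 FPKM, so that *Sin3b* supplied most of the Sin3 scaffold RNA in each library. The share of *Sin3a* was 15.0% and 12.8% in control tissue, against 12.3%, 13.5% and 11.5% in cKO tissue. *Suds3*, which dimerises and stimulates the complex, had the highest mean of the 13 Sin3 genes, with a range that overlapped that of *Sin3b*, at 56.0 and 54.2 against 54.0, 64.3 and 54.8 FPKM. Its groups overlapped (difference 0.06, adjusted p = 0.978). The remaining 10 Sin3 genes, which include the associated proteins *Sap18*, *Sap30*, *Sap30l* and *Sap130*, the SDS3 relatives *Brms1* and *Brms1l*, the retinoblastoma-binding proteins *Arid4a* and *Arid4b* and the histone-reading proteins *Ing1* and *Ing2*, differed by -0.16 to 0.15. In all, 8 of the 13 Sin3 genes had a higher and 5 a lower mean in the cKO, with a median of 0.03. The direction turned with a common total and without cKO 2, where 5 were higher and 8 lower and the medians were -0.03 and -0.02, and without control 1, where 6 were higher and 7 lower.

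The histone chaperones RBBP4 and RBBP7 are WD-repeat proteins that bind histone H4 for Sin3 and NuRD alike. *Rbbp4* (chromosome 4, 128984344 to 129012614) was at 35.3 and 40.5 FPKM in control tissue, against 38.4, 43.5 and 46.1 FPKM in cKO tissue. The first cKO library lay between the controls and cKO 2 and cKO 3 lay above them. The difference was 0.16 ± 0.12 (SE, adjusted p = 0.955), and it was 0.068 without control 1 and 0.26 without control 2. *Rbbp4* lies 180733 bp from *Hdac1* on the same chromosome, and it is the nearest member to the floxed locus. Antisense transcripts of *Sync* and *Gm17525* overlap 8.94% and 9.10% of its exonic sequence. The share of *Rbbp4* in the summed FPKM of the pair was 33.2% and 32.7% in control tissue, against 33.7%, 35.3% and 34.2% in cKO tissue, without overlap. A near-identical copy of *Rbbp7*, annotated as *Gm6382* on the X chromosome, matches 77.7% of its transcript at 96.5% identity, so some *Rbbp7* reads may have been placed there or shared.

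In NuRD, which joins deacetylation to nucleosome remodelling, 9 of the 10 genes had a lower mean in the cKO, beside 46.3% of all tested genes, and none passed the test. The median difference was -0.08. Over the alternatives it ran from -0.14 to -0.07, and 7 to 10 genes were lower (10 with a common total, 7 without control 2 or without cKO 2). The MTA proteins are the scaffolds that hold HDAC1 and HDAC2. *Mta1* (chromosome 12, 114336489 to 114375417) was at 15.9 and 14.3 FPKM in control tissue, against 14.7, 11.0 and 13.0 FPKM in cKO tissue. The first cKO library lay between the controls, and the difference was -0.22 ± 0.14 (SE, adjusted p = 0.955). It was -0.11 and -0.24 within the library sets and -0.12 without cKO 2. *Mta3*, the most abundant of the MTA genes, was at 30.9 and 33.8 FPKM against 29.2, 30.6 and 28.6 FPKM. All 3 of its cKO values lay below both controls, but the difference was -0.13 ± 0.10 (SE, adjusted p = 0.955).

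The CHD proteins are the ATPases of NuRD, and *Chd5* is the member of the trio known for neural expression. *Chd5* (chromosome 4, 151712760 to 151764303) was at 20.0 and 22.9 FPKM in control tissue, against 19.0, 18.6 and 18.7 FPKM in cKO tissue. The cKO values lay close together and below both controls, with a difference of -0.18 ± 0.10 (SE, limma p of 0.122). Within the library sets the difference was -0.07 and -0.28, and without control 2 it was -0.088. *Chd4* was at 28.3 and 34.0 against 27.9, 28.8 and 30.4 FPKM, with a difference of -0.09. *Chd3* supplied 75.8% to 78.8% of the CHD sum in the 5 libraries, and its groups overlapped. *Chd5* supplied 9.35% and 9.74% in control tissue, against 9.21%, 8.30% and 8.49% in cKO tissue. The other NuRD genes, the scaffold *Mta2*, the bridging proteins *Gatad2a* and *Gatad2b* and the methyl-CpG-binding-domain proteins *Mbd2* and *Mbd3*, differed by -0.08 to 0.03. The summed FPKM of the NuRD genes was 344 and 364 in control tissue, against 337, 341 and 339 in cKO tissue.

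CoREST joins the deacetylase to the histone demethylase LSD1, encoded by *Kdm1a*. *Kdm1a* (chromosome 4, 136106455 to 136158638), the most abundant gene of this complex, was at 26.0 and 29.4 FPKM in control tissue, against 25.7, 29.9 and 29.4 FPKM in cKO tissue. The cKO values reached from just below to just above those of the controls, and the difference was 0.03 (95% interval -0.23 to 0.29). *Zmym3*, a zinc-finger subunit on the X chromosome, was at 21.8 and 24.2 against 20.6, 21.2 and 21.6 FPKM, a difference of -0.12 ± 0.10 (SE, adjusted p = 0.956) with no overlap of the groups. The scaffolds *Rcor1*, *Rcor2* and *Rcor3*, the zinc-finger protein *Zmym2*, the histone reader *Phf21a* and the HMG-box protein *Hmg20b* differed by -0.03 to 0.11. Of the 8 CoREST genes, 4 were higher and 4 lower, with a median of 0.01. With a common total 1 was higher and 7 were lower, without cKO 1 these were 6 and 2, and without cKO 2 they were 2 and 6. The median ran from -0.06 with a common total to 0.11 without control 2, and it was -0.05 without control 1. *Rcor3* supplied 48.1% to 55.5% of the RCOR sum in the 5 libraries, with 18.9% of its exonic sequence shared with an antisense transcript, *Gm16621*. Whether reads were counted by strand was not stated, so reads of both genes cannot be told apart.

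NCoR is recruited by unliganded nuclear receptors and contains HDAC3. Its scaffold gene *Ncor1* (chromosome 11, 62129928 to 62272043) was at 38.6 and 42.4 FPKM in control tissue, against 39.8, 44.8 and 44.3 FPKM in cKO tissue, a difference of 0.08 ± 0.10 (SE). *Tbl1xr1*, a WD-repeat subunit, was at 19.5 and 18.0 against 20.3, 19.4 and 19.6 FPKM, a difference of 0.07. Both genes had overlapping groups. *Gps2*, a small subunit that also acts outside the nucleus, was at 9.61 and 10.8 FPKM in control tissue, against 7.68, 9.78 and 8.55 FPKM in cKO tissue. The second cKO library lay between the controls, and the difference was -0.22 ± 0.13 (SE, adjusted p = 0.955). It was -0.29 and -0.22 within the library sets, -0.14 without control 2 and -0.14 without cKO 1. *Gps2* rests on an estimated 65.6 to 93.1 fragments per library, among the fewest of the members. *Tbl1x*, the X-linked relative of *Tbl1xr1*, differed by 0.01.

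The MIER proteins carry the ELM2-SANT module through which the MTA and RCOR proteins bind HDAC1 and HDAC2. *Mier1* was at 13.8 and 12.7 FPKM in control tissue, against 14.1, 13.2 and 12.5 FPKM in cKO tissue, and *Mier2* at 8.99 and 8.89 against 8.95, 9.25 and 8.43 FPKM. Neither differed by more than 0.01 in size, and their groups overlapped. *Mier3* (chromosome 13, 112476386 to 112508804), the lowest of the 3, was at 5.38 and 5.36 FPKM in control tissue, against 4.89, 4.81 and 3.73 FPKM in cKO tissue. All cKO values lay below both controls, and the third cKO library lay furthest. The difference of -0.23 ± 0.14 (SE, adjusted p = 0.955) was the largest in size among the 40 members with all libraries in the fit. Within the library sets it was -0.12 and -0.28, and without cKO 3 it was -0.12.

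Values that did not overlap between the groups were found for 7 of the 40 members (17.5%), beside 20.4% of all tested genes. *Sap18* and *Rcor1* were higher in every cKO library than in both controls, and *Sap30*, *Mta3*, *Chd5*, *Zmym3* and *Mier3* were lower, that is 2 and 5 members beside 11.0% and 9.41% of all tested genes. The share of the members was close to that of all genes, so it is no result about these complexes. The count depends on the small groups, and it was 18 without control 1 (47.7% of all tested genes), 20 without control 2 (54.6%), 15 without cKO 1 (40.1%), 12 without cKO 2 (29.9%) and 9 without cKO 3 (30.8%). *Sap18* was at 14.8 and 16.5 FPKM in control tissue, against 17.1, 17.8 and 17.3 FPKM in cKO tissue. An annotated copy, *Gm10094*, matches 22.5% of its longest transcript at full identity, so its reads may be split between both.

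Composition within a family of related subunits was compared as the share of each gene in the summed FPKM of the family. Over 14 families, 22 shares were tested with a two-sided exact permutation test, in which 2 against 3 libraries cannot give a p below 0.1. The groups did not overlap for 3 shares, and the lowest p after Benjamini-Hochberg adjustment over the 22 was 0.733. *Mier3* supplied 19.1% and 19.9% of the MIER sum in control tissue, against 17.5%, 17.6% and 15.1% in cKO tissue (exact permutation p = 0.1). The difference of -2.79 points was set against SDs of 0.55 points (n = 2) and 1.40 points (n = 3). *Rbbp4* was 1.44 points higher and *Chd5* 0.878 points lower in the cKO, each with an exact permutation p of 0.2. The largest difference in size, -3.59 points for *Arid4a* in the Arid4 pair, came with overlapping groups and SDs of 1.85 and 4.49 points. These differences are small beside that of the *Hdac1* share in the catalytic pair, which was 22.6% and 25.3% in the controls and at most 8.87% in the cKO.

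**Figure D3:**
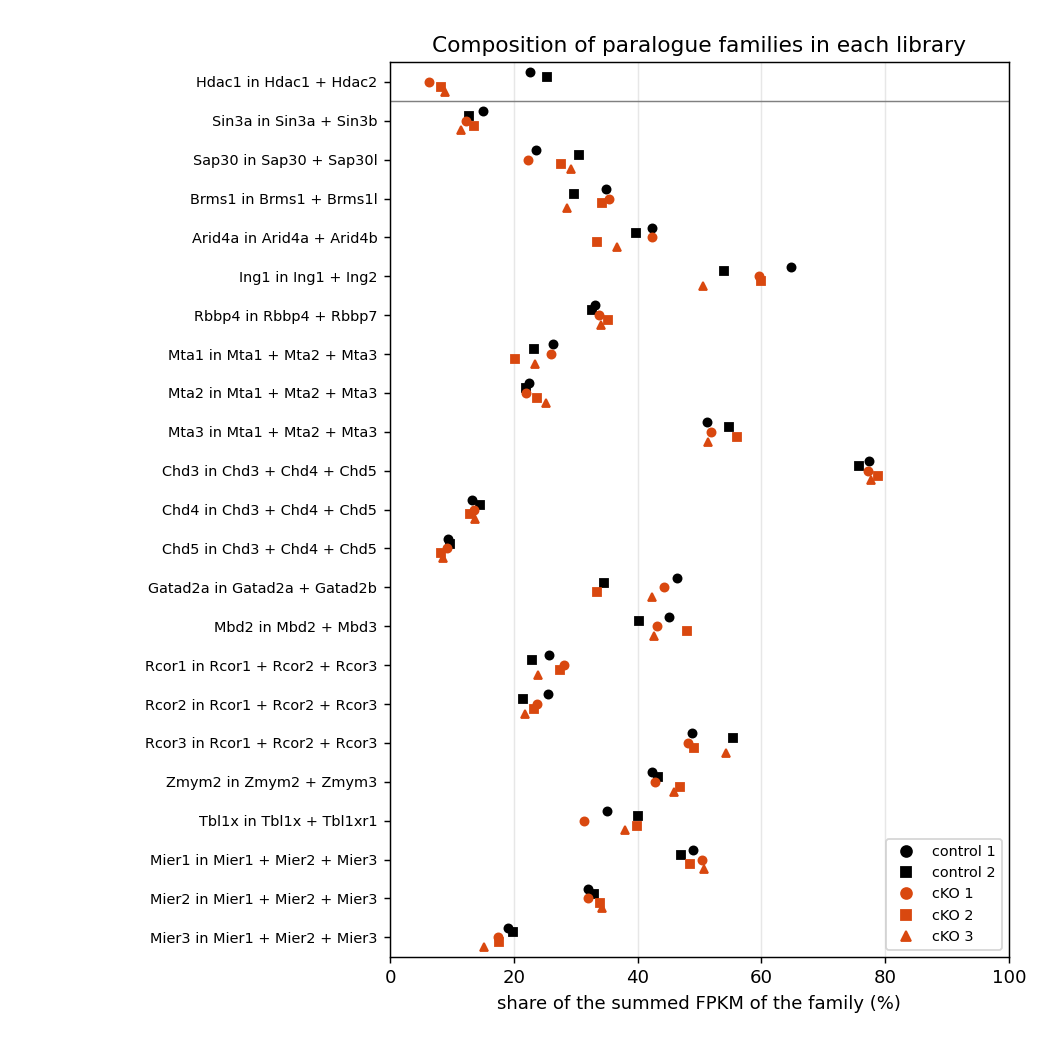
Share of a gene in the summed FPKM of its family, in percent, in each of the 5 libraries. The top line is *Hdac1* in the catalytic pair, where the 3 cKO libraries lie at 6.37% to 8.87% and the controls at 22.6% and 25.3%. In the subunit families below it the groups overlap in all but 3 shares, those of *Rbbp4*, *Chd5* and *Mier3*.

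The library sets gave a second contrast for the same genes. With genotype in the model, 12 of the 40 members (30.0%) differed between the sets at an unadjusted limma p under 0.05, beside 22.9% of all tested genes. At an adjusted p under 0.05 there were 0 members, beside 3.09% of all tested genes. The difference between sets was larger in size than the difference between genotypes for 26 of the 40 members and for 7674 of the 12740 tested genes. *Sap30l* had the lowest p between sets, with 30.4 and 26.5 FPKM in the libraries of the first set and 19.8, 22.3 and 20.4 FPKM in those of the second. The libraries of the sets did not overlap, and the difference was -0.42 (adjusted p = 0.0579 in limma). *Arid4b* was at 8.77 and 8.30 FPKM in the first set and at 11.9, 13.2 and 10.5 FPKM in the second, a difference of 0.43 (adjusted p = 0.0872 in limma). *Sin3b* and *Rbbp4*, with the largest positive differences by genotype, also differed between the sets, by 0.26 and 0.21. The difference between genotypes had opposite signs in the 2 sets for 15 of the 40 members (37.5%) and for 39.9% of all tested genes. The first set holds 1 library of each genotype, so these differences within a set have no test.

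**Figure D4:**
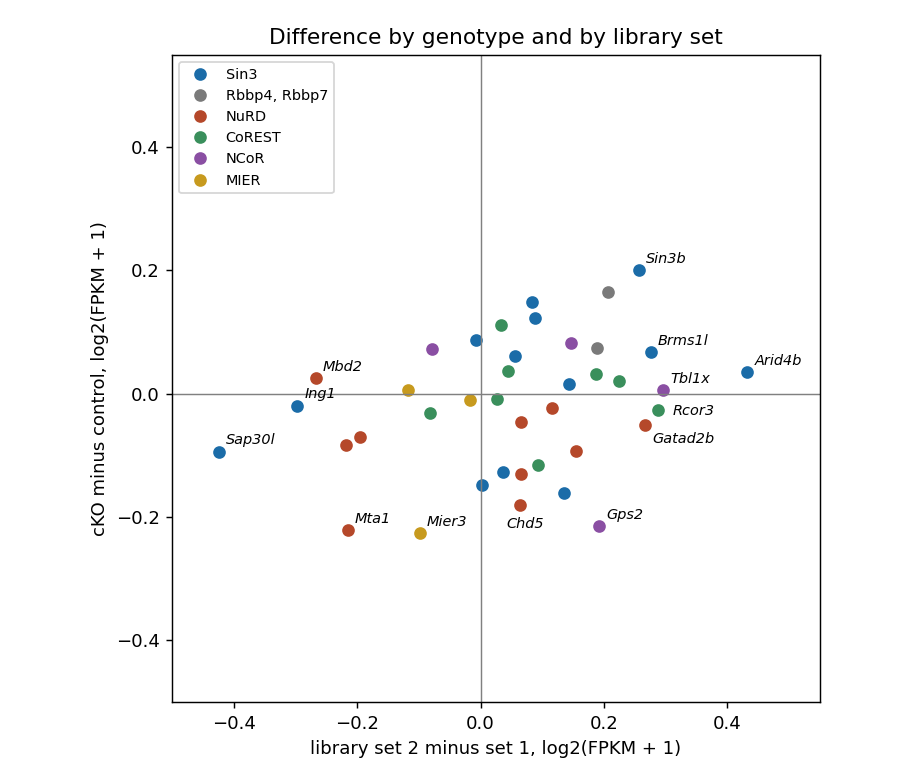
Difference between genotypes (vertical axis) against the difference between library sets (horizontal axis) for the 40 subunits, both on the log2(FPKM + 1) scale and on the same range, coloured by complex. *Sap30l* and *Arid4b* lie furthest out along the horizontal axis, at -0.42 and 0.43, and no subunit exceeds 0.23 in size along the vertical axis.

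Further subunits and recruiters of the same complexes were counted from a list of 22 genes, of which 21 could be tested and *Sap25* lay under the minimum. None passed the threshold, 5 had a higher and 16 a lower mean in the cKO, beside 46.3% of all tested genes that were lower (3 and 18 with a common total, beside 62.6%), and the median was -0.06. *Fam60a*, a Sin3 subunit, was the only one of the 21 with an unadjusted p under 0.05, a share close to the 4.36% of all tested genes. It was at 0.873 and 1.48 FPKM in control tissue, against 1.76, 1.98 and 2.22 FPKM in cKO tissue, above both controls in each library, and its cKO mean was 169% of the control mean in FPKM. On the log2(FPKM + 1) scale, where the fold was taken, the change of such a low gene is understated and did not reach 1.5-fold. *Fam60a* passed the threshold with a pseudocount of 0.1 FPKM (difference 0.74) and without control 2 (0.67), and was at 0.26 without control 1. Its difference was 0.47 ± 0.18 (SE, limma p of 0.0294, adjusted p = 0.955), and at an estimated 16.0 to 38.5 fragments per library its level was low. *Rest*, the DNA-binding repressor that recruits CoREST to neuronal genes, differed by -0.23 (adjusted p = 0.955).

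The libraries held an estimated 5120000 to 6750000 fragments each and 12680 to 12745 genes at 1 FPKM or more. Markers of neurons, astrocytes and oligodendrocytes were present in every library, as the label of the tissue requires. The summed level of 8 astrocyte markers was 2542 and 2573 FPKM in control tissue, against 2780, 2819 and 2936 FPKM in cKO tissue, 5 of the 8 being higher by their mean and 2 having an unadjusted p under 0.05. That of 8 neuronal markers was 1794 to 2002 FPKM with overlapping groups, 1 of the 8 being higher and their median difference -0.07. By staining, the study saw no significant change in the number of neurons, astrocytes or microglia in cKO mice of this age. Of 6 markers of granule and pyramidal cells 0 were higher, with a median difference of -0.08, beside the median of -0.08 for the NuRD genes. The 4 choroid plexus markers summed to 164 and 6.20 FPKM in control tissue, against 73.4, 601 and 24.6 FPKM in cKO tissue, with *Folr1* and *Kcnj13* listed at 0 in at least 1 library. The libraries thus differed widely in choroid plexus RNA within each group, cKO 2 holding the most. The part of cell composition in the values of the members was not tested.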

How the data were processed

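Total RNA of the hippocampus was made into libraries with an Illumina TruSeq Total RNA kit and sequenced on an Illumina HiSeq. The authors aligned the reads with Tophat2 and deposited FPKM from Cufflinks 2.0.0 with the mm9 annotation. Groups and replicate numbers come from the sample titles. FPKM are not counts, so all 12740 genes whose mean reached 1 FPKM were fitted with limma 3.58.1 (R 4.3.3, mean-variance trend, genotype as the only term, two-sided) on log2(FPKM + 1), which understates changes of low genes, and p-values were adjusted by Benjamini-Hochberg over all of them. The fit was tested on simulated data. Shares were compared by exact permutation over samples.

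The members, complexes and lists were chosen with earlier results of these data known, and no p-value over a list is given. Values in every library are given for the 5 members with the largest differences and the 2 highest of each complex. They are also given for members whose family share did not overlap between groups and for *Hdac1*, *Hdac2* and *Hdac3*. *Sap18*, *Sin3a*, *Chd4* and the genes set out by library set were added after their values were seen. Gene positions come from GENCODE vM1 (NCBIM37), promoters from RefSeq, and copies from BLAST 2.17.0. Some genes of the further list are counted but not reported here by name. Library sizes were estimated from steps in low FPKM values and cover counting only approximately. The step held 30 low genes in control 1 and 38 in cKO 1, beside 73 to 77 in the other libraries, so the estimates of the first set are weaker.

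Alternatives were a pseudocount of 0.1 FPKM, no filter, a minimum mean of 5 FPKM, 3 rescalings (median-ratio size factors, quantile normalization, a common total), no trend, the replicate block, the library set block and leaving out each library.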

Additional observations from a re-analysis of the deposited data

How the results depend on the processing

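The 14 alternatives left the count of members past the 1.5-fold threshold at 0 each time, and the lowest adjusted p of a member under any of them was 0.462. The count with an unadjusted p under 0.05 was 1 with the library set block (*Gps2*), beside 9.34% of all tested genes, and 0 to 2 when 1 library was left out (*Mta1* without cKO 1, beside 7.61%, and *Sin3b* and *Sap30l* without control 2, beside 5.38%). The median difference of the members was -0.070 after rescaling to a common total, where that of all genes was -0.05, and stayed within the spread between libraries otherwise. All genes past the threshold numbered 142 with a pseudocount of 0.1, 43 with a minimum mean of 5 FPKM, 133 with the replicate block, and 92 to 234 when 1 library was left out (151 without cKO 1, 156 without control 1, 234 without control 2). Members whose groups did not overlap numbered 9 to 20 when 1 library was left out, beside 29.9% to 54.6% of all tested genes. Of 265 values of the 19 named genes under the alternatives, 246 kept their direction and side of the threshold and 19 turned sign. A changed filter or no trend leaves each difference as it was, so no sign could turn there and the 246 include such values. With a common total the values that turned sign were *Suds3* (-0.0040), *Kdm1a* (-0.033), *Mier1* (-0.057) and *Hdac3* (-0.028). *Mier1* was at -0.0086 with size factors and -0.0012 with quantile normalization. Leaving out 1 library moved *Suds3* between -0.017 and 0.11, *Rbbp7* between -0.040 and 0.19, *Chd3* between -0.075 and 0.028, *Kdm1a* between -0.053 and 0.12, *Mier1* between -0.048 and 0.061, *Mier2* between -0.037 and 0.023, *Hdac2* between -0.24 and 0.085 and *Hdac3* between -0.14 and 0.21. The cause was not tested. Without turning sign, *Mta3* moved between -0.19 and -0.067, *Zmym3* between -0.19 and -0.044, *Ncor1* between 0.017 and 0.15 and *Tbl1xr1* between 0.017 and 0.13, lowest in size without control 2 for *Mta3*, *Zmym3* and *Tbl1xr1* and without control 1 for *Ncor1*. With the replicate block *Mier2* was at 0.023 and *Mier3* at -0.12. The adjusted limma p of *Hdac1* was 0.0115 with this block (0.00389 to 0.846 over all alternatives). Replicate 3 exists only in the cKO, so the differences with this block were the same as those without cKO 3. Replicate numbers are shared across the groups, and same-numbered libraries deviated together (r = 0.40 and 0.27), but with 2 such pairs the numbers are not shown to pair the samples. The replicate block gave 0 members with an unadjusted p under 0.05, beside 11.2% of all tested genes, and a member median of -0.01. *Sap30*, *Gps2* and *Rcor2* rest on few fragments, but their SEs of 0.12, 0.13 and 0.13 lay below the 0.20 of *Arid4b*. The part of depth in the spread was not tested.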
